A study of Homo sapiens with 6 samples.

Results

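Long non-coding RNA genes, chosen by name, were followed in MOLM13 cells. This acute myeloid leukemia line carries an FLT3 internal tandem duplication and a rearrangement between 9p22 and 11q23. The genes were named LINC (long intergenic) followed by a number, or for a gene on the other strand with the ending -AS1, -AS2 or -AS3. The counts list 967 LINC and 1152 antisense genes, 2119 of 56305 genes in all, of which 895 had a count in every library and 697 had none in any. A gene was taken when its mean level over the DMSO libraries was at least 2 CPM (the gene's counts over all counts on genes, scaled to 1000000), which left 284: 86 LINC genes and 198 antisense genes, 191 ending in -AS1, 7 in -AS2 and 0 in -AS3. All 284 passed the filter on low counts. The cells were grown for 24 h with DMSO, the solvent control (3 libraries), or with 1 μM ZW27941 (3 libraries), a PROTAC, that is a molecule that ties a target protein to a ubiquitin ligase, here METTL3 to VHL, so that the target is broken down. Both groups are the same line with the same genotype, and the comparison addresses which RNAs change when this degrader is added. The labels do not say that the replicates are separate cultures, so p-values measure the spread between these libraries only, which may be technical.

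A long non-coding RNA is transcribed, and often capped, spliced and polyadenylated, like an mRNA, but is not known to be read into a long protein. Many antisense RNAs start beside the promoter of the gene on the opposite strand and run away from it, others start inside that gene and run against it, and a few are known to act on their neighbor in cis, while most have no known role. METTL3 is the catalytic subunit of the writer that places m6A on adenosines of nascent mRNAs and long non-coding RNAs, most often within letters such as GGACT, and the mark is known to affect splicing, nuclear retention and decay of the transcript that carries it.

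The DMSO libraries held 143454176 to 153825333 counts on genes and the ZW27941 libraries 143621822 to 178744976, more than the number of raw reads the labels name. The 284 genes took 0.491% to 0.501% of these counts in each library, and the lowest count of any of them in any library was 246. ZW27941 replicate 3 stood apart from the other two on ZW27941: a chi-square of the counts averaged 11.5 and 7.88 per gene against its group mates, while the other pairs of replicates ran from 4.34 to 5.16. In that library 5.25% of all reads, on genes or not, had more than 1 place of alignment against 3.63% to 4.07% in the others. All 10 myeloid markers examined (CD33, FLT3, SPI1, MPO, LYZ, CSF1R, ITGAM, CEBPA, HOXA9 and MEIS1) were present, from 46.4 to 959 CPM in DMSO. On ZW27941, 6 of them rose and 0 fell, with the largest rises in CSF1R (log2 fold change 0.40, adjusted p = 4.69e-10) and LYZ (log2 fold change 0.27, adjusted p = 3.74e-07). Of all genes at 20 CPM or more in DMSO, 47.4% passed at an adjusted p under 0.05. The 10 markers are too few to set beside that share. Among markers of other cell types, HBB, CD3E, EPCAM, COL1A2, MS4A1 and KLF1 were at 0 to 0.047 CPM in DMSO, while PAX5 was at 25.7, KRT18 at 12.7 and KRT8 at 7.46 CPM. Of these, PAX5 rose (log2 fold change 0.12, adjusted p = 0.00562) and KRT18 fell (log2 fold change −0.31, adjusted p = 2.33e-05). The part of these shifts in the changes of the 284 genes was not tested. In bulk RNA, a change in RNA per cell and a change in the mix of cells cannot be told apart. Because ZW27941 acts on the METTL3 protein, the METTL3 transcript does not check the labels.

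Start sites show how closely an antisense gene can sit to its namesake. Shown here, from RefSeq (GRCh38.p14), is the DNA between the start of an antisense gene and the start of the sense gene, read 5′ to 3′ on the antisense gene's strand, followed by the first 50 transcribed bases of the antisense gene in capitals. In all 4 the starts face away from each other. The first pair of sequences belongs to antisense genes that rose while their sense gene did not pass the test, the third to a gene that fell with its sense gene, and the fourth to a gene that fell while its sense gene rose.
UBAC2-AS1, chr13:99200708-99200853, minus strand: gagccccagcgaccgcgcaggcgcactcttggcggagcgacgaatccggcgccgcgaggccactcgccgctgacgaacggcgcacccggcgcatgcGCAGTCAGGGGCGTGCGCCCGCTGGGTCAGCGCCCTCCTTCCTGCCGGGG
SCAMP1-AS1, chr5:78360492-78360616, minus strand: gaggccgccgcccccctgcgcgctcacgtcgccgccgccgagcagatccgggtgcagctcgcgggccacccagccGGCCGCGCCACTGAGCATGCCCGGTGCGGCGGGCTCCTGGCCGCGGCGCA
SRP14-AS1, chr15:40039203-40039360, plus strand: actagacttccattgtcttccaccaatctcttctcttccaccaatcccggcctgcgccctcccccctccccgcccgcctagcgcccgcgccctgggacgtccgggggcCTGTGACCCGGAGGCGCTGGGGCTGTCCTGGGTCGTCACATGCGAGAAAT
NCK1-AS1, chr3:136862014-136862207, minus strand: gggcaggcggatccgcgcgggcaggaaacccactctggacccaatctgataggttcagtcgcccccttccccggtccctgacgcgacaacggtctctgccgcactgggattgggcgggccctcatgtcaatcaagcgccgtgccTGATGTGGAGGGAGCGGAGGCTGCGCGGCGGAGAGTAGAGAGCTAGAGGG

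The RefSeq starts of UBAC2-AS1 and UBAC2 lay 97 bases apart, those of SCAMP1-AS1 and SCAMP1 76, those of SRP14-AS1 and SRP14 109, and those of NCK1-AS1 and NCK1 145. The 4 stretches were rich in G and C, from 66.5% to 81.6%. CCAAT, on either strand, was found in those of SRP14-AS1 and NCK1-AS1, and GGGCGG in those of SCAMP1-AS1, SRP14-AS1 and NCK1-AS1. TATAAA was found in none of them.

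On ZW27941, 53 of the 284 genes rose and 43 fell in edgeR's quasi-likelihood test (Benjamini-Hochberg adjusted p under 0.05 over all 20399 genes tested), which is 33.8% of them. Of all genes tested, 30.1% passed (16.3% higher and 13.8% lower), and of the 12212 genes at 2 CPM or more in DMSO, 42.2% passed (23.3% higher and 18.9% lower). The share for these long non-coding genes thus lay between both backgrounds, and nothing is read from it about the genes as a class. Without ZW27941 replicate 3, which stood apart, 47 rose and 39 fell. The count of rises moved most without ZW27941 replicate 2, to 32, with 31 falls. When libraries were scaled by their upper quartile instead of by TMM, 38 rose and 51 fell. Changes were small: the genes called had a median log2 fold change of 0.21 in size, 35 of them passed 0.25, and the range over all 284 was −0.48 to 0.49. Their median log2 fold change was 0.016, beside −0.0019 for all genes tested and 0.0066 for genes at 2 CPM or more. In 79 genes the 3 ZW27941 libraries all lay above the 3 DMSO libraries and in 47 all below; such a lack of overlap was seen in 41.5% of all genes tested and in 52.8% of those at 2 CPM or more. Since the rule uses the DMSO libraries, which the change also uses, the counts were taken again for genes with at least 2 CPM over all 6 libraries: of 285 genes, 53 rose and 41 fell.

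**Figure D1:**
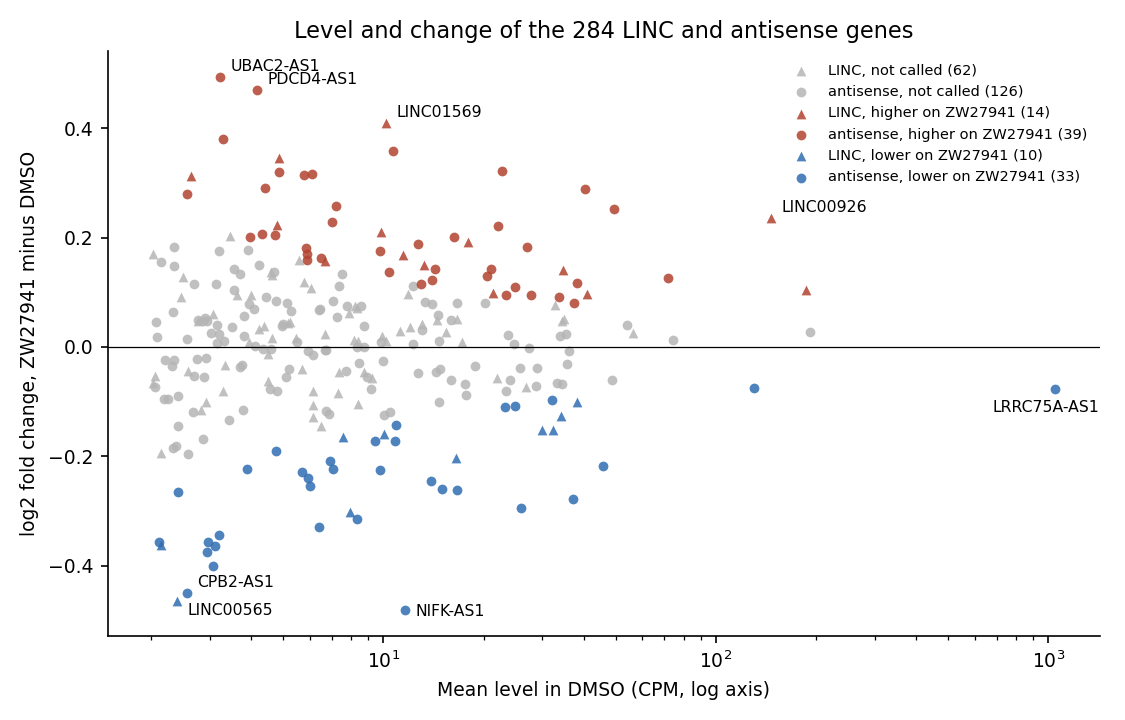
Each point is 1 of the 284 genes, with its mean level in the 3 DMSO libraries (CPM, log axis) against its log2 fold change on ZW27941; triangles are LINC genes, circles antisense genes, red and blue mark genes that rose or fell at an adjusted p under 0.05 and gray marks the 188 that did not pass. UBAC2-AS1 (0.49) and NIFK-AS1 (−0.48) mark the extremes, and LRRC75A-AS1 lies far to the right, at 1047 CPM.

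The share that passed was higher at higher levels. Of 107 genes at 2 to 5 CPM, 22.4% were called, of 74 at 5 to 10 CPM 29.7%, of 47 at 10 to 20 CPM 40.4% and of 56 at 20 CPM or more 55.4%. All genes in the same ranges were called at 26.5%, 32.1%, 39.2% and 47.4%. The median standard error of the log2 fold change fell along these ranges from 0.082 to 0.032 for the long non-coding genes, so a gene at the low end needed a larger change to pass.

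**Figure D2:**
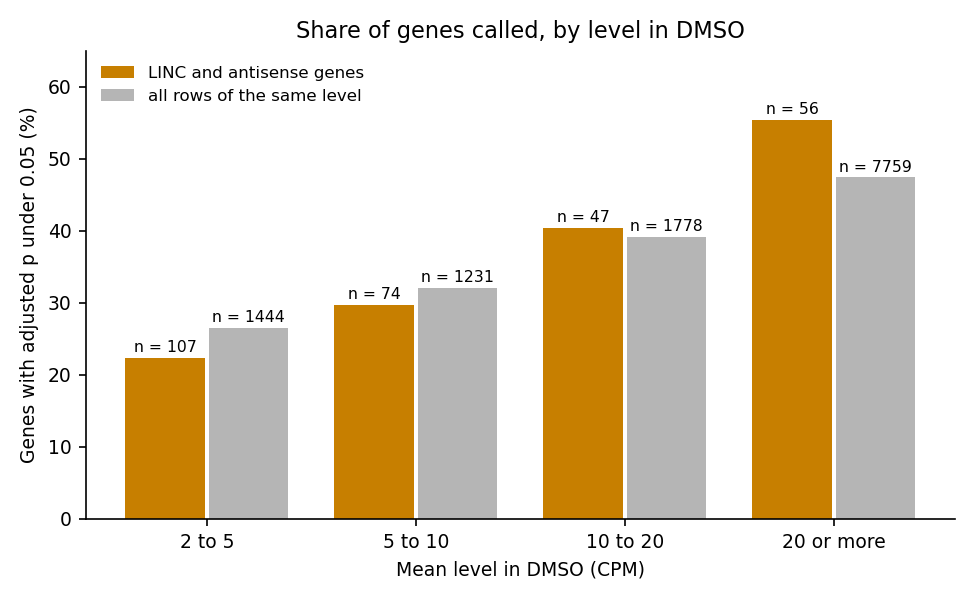
Bars give the share of genes with an adjusted p under 0.05 (%) in 4 ranges of mean DMSO level (CPM), orange for the LINC and antisense genes and gray for all genes of that range, with the number of genes above each bar. Both shares climb with the level, from 22.4% to 55.4% and from 26.5% to 47.4%.

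Of the 10 largest rises, 7 were in genes below the median DMSO level of the 284 genes, 6.73 CPM, and 3 in genes above it. UBAC2-AS1 (chr13:99196377-99200710, minus strand, GRCh38, as are the positions that follow) is annotated beside UBAC2, the gene of an endoplasmic reticulum protein with a ubiquitin-associated domain. It was at 3.24, 2.91 and 3.52 CPM in the DMSO libraries and 4.79, 4.64 and 4.27 CPM in the ZW27941 libraries. The lowest ZW27941 library lay above the highest DMSO library, and the gene rose (log2 fold change 0.49, standard error 0.079, adjusted p = 5.91e-05). PDCD4-AS1 (chr10:110869868-110872233, minus strand) lies opposite PDCD4, which encodes an inhibitor of translation initiation. It was at 3.99, 4.48 and 3.99 CPM in the DMSO libraries and 5.81, 5.52 and 6.03 CPM in the ZW27941 libraries. Again the groups did not overlap, and the gene rose (log2 fold change 0.47, standard error 0.069, adjusted p = 2.31e-05). LINC01569 (chr16:4243943-4253817, minus strand), an intergenic gene of 3 exons in its longest transcript, was at 9.36, 10.4 and 10.7 CPM in the DMSO libraries and 13.4, 14.1 and 13.3 CPM in the ZW27941 libraries. All 3 ZW27941 libraries were higher, and its rise was the largest of the LINC genes (log2 fold change 0.41, standard error 0.0499, adjusted p = 2.14e-06).

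LBX2-AS1 (chr2:74502595-74504678, plus strand), opposite the homeobox gene LBX2, was at 3.12, 3.43 and 3.28 CPM in the DMSO libraries and 4.42, 4.05 and 4.41 CPM in the ZW27941 libraries. INTS6-AS1 (chr13:51452367-51552364, plus strand), opposite the gene of an Integrator subunit, was at 9.98, 10.9 and 11.1 CPM in the DMSO libraries and 13.9, 14.02 and 13.4 CPM in the ZW27941 libraries. LINC00639 (chr14:38749339-38948273, minus strand) was at 5.03, 4.696 and 4.83 CPM in the DMSO libraries and 6.66, 5.85 and 6.09 CPM in the ZW27941 libraries. In each of these 3 genes the groups did not overlap, and each rose: LBX2-AS1 with a log2 fold change of 0.38 (adjusted p = 0.000455), INTS6-AS1 with a log2 fold change of 0.36 (adjusted p = 4.17e-06) and LINC00639 with a log2 fold change of 0.35 (adjusted p = 0.000356). TMEM147-AS1 (chr19:35540738-35546029, minus strand), the highest of the 10 at baseline, was at 23.3, 22.6 and 22.2 CPM in the DMSO libraries and 28.3, 27.9 and 29.5 CPM in the ZW27941 libraries. Its replicates lay close together, and it rose (log2 fold change 0.32, standard error 0.033, adjusted p = 2.90e-07).

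MZF1-AS1 (chr19:58559129-58574797, plus strand) lies opposite MZF1, a zinc finger factor of myeloid cells, and was at 5.16, 4.79 and 4.58 CPM in the DMSO libraries and 5.74, 6.09 and 6.43 CPM in the ZW27941 libraries. ZEB2-AS1 (chr2:144517978-144521477, plus strand), opposite the zinc finger repressor ZEB2, was at 6.29, 6.16 and 5.82 CPM in the DMSO libraries and 7.19, 7.903 and 7.84 CPM in the ZW27941 libraries. SCAMP1-AS1 (chr5:78342365-78360507, minus strand), beside the gene of a secretory carrier membrane protein, was at 5.66, 5.72 and 5.96 CPM in the DMSO libraries and 6.94, 7.12 and 7.66 CPM in the ZW27941 libraries. The ZW27941 libraries lay above the DMSO libraries in all 3, with log2 fold changes of 0.32 for MZF1-AS1 (adjusted p = 0.00102), 0.32 for ZEB2-AS1 (adjusted p = 0.000436) and 0.31 for SCAMP1-AS1 (adjusted p = 0.000493). Under the exons of the other strand lay 39.8% of the exonic bases of MZF1-AS1, 41.4% of those of ZEB2-AS1, 31.2% of those of LBX2-AS1 and 20.9% of those of TMEM147-AS1, so that their counts are uncertain if the counting ignored strand; UBAC2-AS1, PDCD4-AS1, LINC01569 and SCAMP1-AS1 shared no exonic base with a gene on that strand.

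**Figure D3:**
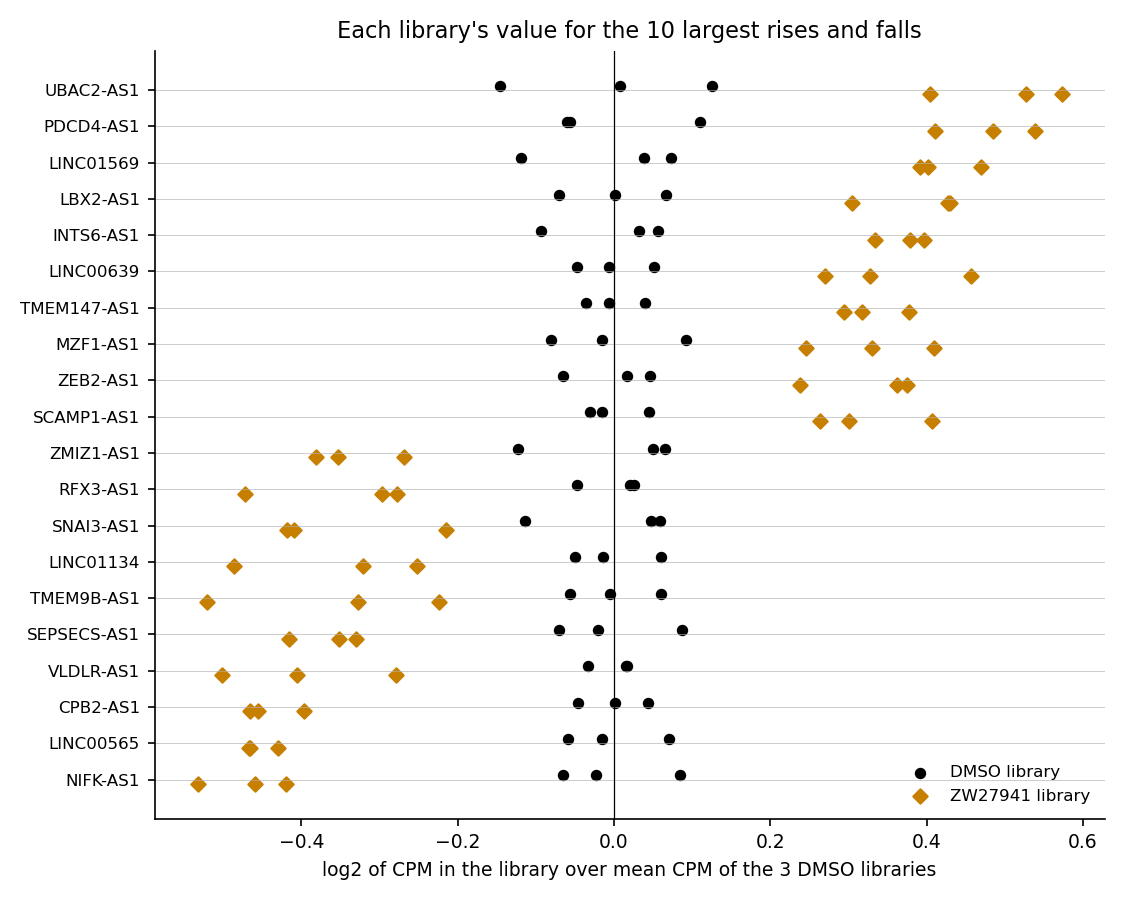
For the 10 genes with the largest rises and the 10 with the largest falls among those called, each point is 1 library, as the log2 of its CPM over the mean CPM of the 3 DMSO libraries; circles are DMSO and diamonds ZW27941. In all 20 genes the diamonds lie to 1 side of the circles, which follows in part from how the genes were picked.

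NIFK-AS1 (chr2:121649650-121728481, plus strand) had the largest fall. It is named for NIFK, which encodes a nucleolar protein that binds Ki-67, and was at 11.5, 11.1 and 12.3 CPM in the DMSO libraries and 8.47, 8.703 and 8.05 CPM in the ZW27941 libraries. Every ZW27941 library was below every DMSO library, and the gene fell (log2 fold change −0.48, standard error 0.052, adjusted p = 4.46e-07). LINC00565 (chr13:113926514-113928844, minus strand), for which RefSeq has the symbol SWINGN, was at 2.37, 2.52 and 2.301 CPM in the DMSO libraries and 1.73, 1.73 and 1.78 CPM in the ZW27941 libraries. CPB2-AS1 (chr13:46052806-46122670, plus strand), opposite the gene of a carboxypeptidase of fibrinolysis, was at 2.56, 2.64 and 2.48 CPM in the DMSO libraries and 1.85, 1.94 and 1.87 CPM in the ZW27941 libraries. Both were below 2 CPM in all ZW27941 libraries and above it in all DMSO libraries, and both fell: LINC00565 with a log2 fold change of −0.46 (adjusted p = 0.000281) and CPB2-AS1 with a log2 fold change of −0.45 (adjusted p = 0.000288).

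VLDLR-AS1 (chr9:2421597-2643359, minus strand), opposite the gene of the very low density lipoprotein receptor, was at 3.004, 3.11 and 3.11 CPM in the DMSO libraries and 2.53, 2.17 and 2.32 CPM in the ZW27941 libraries. SEPSECS-AS1 (chr4:25160641-25201440, plus strand), beside the gene of the enzyme that makes selenocysteine on its tRNA, was at 3.12, 2.801 and 2.899 CPM in the DMSO libraries and 2.204, 2.305 and 2.34 CPM in the ZW27941 libraries. TMEM9B-AS1 (chr11:8964675-8977527, plus strand) was at 3.26, 3.11 and 3.003 CPM in the DMSO libraries and 2.49, 2.67 and 2.18 CPM in the ZW27941 libraries. No ZW27941 library of these 3 genes reached the DMSO range, and their log2 fold changes were −0.40 for VLDLR-AS1 (adjusted p = 0.000785), −0.38 for SEPSECS-AS1 (adjusted p = 0.00131) and −0.36 for TMEM9B-AS1 (adjusted p = 0.00255).

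LINC01134 (chr1:3900372-3917225, plus strand) was at 2.23, 2.07 and 2.12 CPM in the DMSO libraries and 1.53, 1.71 and 1.797 CPM in the ZW27941 libraries. SNAI3-AS1 (chr16:88663298-88687186, plus strand), opposite a Snail family repressor gene, was at 2.19, 2.21 and 1.96 CPM in the DMSO libraries and 1.59, 1.82 and 1.58 CPM in the ZW27941 libraries. RFX3-AS1 (chr9:3526723-3691814, plus strand), beside the gene of a regulator of cilia, was at 2.87, 3.01 and 3.02 CPM in the DMSO libraries and 2.45, 2.42 and 2.14 CPM in the ZW27941 libraries. These groups did not overlap either, and all 3 genes fell (LINC01134: log2 fold change −0.36, adjusted p = 0.00499; SNAI3-AS1: log2 fold change −0.36, adjusted p = 0.00592; RFX3-AS1: log2 fold change −0.36, adjusted p = 0.00216). LINC01134 and SNAI3-AS1 reached 2 CPM only through the DMSO libraries, in which they were high. They were at 1.91 and 1.89 CPM over all 6 libraries, so their place among the largest falls is favored by the rule. ZMIZ1-AS1 (chr10:78943328-79067895, minus strand), beside the gene of a transcriptional coactivator, was at 2.94, 3.35 and 3.32 CPM in the DMSO libraries and 2.51, 2.46 and 2.66 CPM in the ZW27941 libraries. Its DMSO libraries were all higher, and it fell (log2 fold change −0.34, adjusted p = 0.00289). Of these 10 genes, TMEM9B-AS1 had the largest share of exonic bases under exons of the other strand, 19.0%. Leaving out each library in turn, all 20 of these largest rises and falls passed in all 6 fits, with a highest adjusted p of 0.0359, for LINC01134. That is favored by the choice, since the genes were picked for large changes among those called with all 6 libraries.

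The genes with the most counts moved less than the largest rises and falls, which were picked for the size of their change. LRRC75A-AS1 (chr17:16438822-16478678, plus strand) has the RefSeq symbol SNHG29 and holds the small nucleolar RNAs SNORD49A, SNORD49B and SNORD65, which guide ribosomal RNA modification, in its introns. It was at 1051, 1039 and 1051 CPM in the DMSO libraries and 986, 993 and 1022 CPM in the ZW27941 libraries. The groups did not overlap and the gene fell (log2 fold change −0.076, standard error 0.025, adjusted p = 0.0264), a call that was lost when any library other than ZW27941 replicate 3 was left out, with an adjusted p of up to 0.116. OIP5-AS1, a conserved RNA known as Cyrano that is tied to the decay of miR-7, was at 196, 190.1 and 190.4 CPM in the DMSO libraries and 203, 201 and 188 CPM in the ZW27941 libraries, with overlapping groups (log2 fold change 0.028, adjusted p = 0.4805). LINC00599, with the RefSeq symbol MIR124-1HG for a host gene of miR-124, was at 188, 188 and 182 CPM in the DMSO libraries and 198, 203 and 203 CPM in the ZW27941 libraries. All its ZW27941 libraries were higher, and it rose (log2 fold change 0.10, adjusted p = 0.00234).

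LINC00926 was at 145, 149 and 145 CPM in the DMSO libraries and 172, 175 and 173 CPM in the ZW27941 libraries. It was the largest change among the 6 genes with the most counts, with no overlap (log2 fold change 0.24, standard error 0.024, adjusted p = 2.40e-07). CCDC144NL-AS1 was at 133, 129 and 129 CPM in the DMSO libraries and 125, 128 and 121 CPM in the ZW27941 libraries. It fell (log2 fold change −0.075, adjusted p = 0.0287), but leaving out 1 library ended the call in 4 of 6 fits, namely without DMSO replicate 1 or 3 or ZW27941 replicate 1 or 3, with an adjusted p of up to 0.12. GABPB1-AS1, opposite the gene of an ETS factor subunit, was at 74.5, 74.2 and 73.6 CPM in the DMSO libraries and 77.02, 75.6 and 73.4 CPM in the ZW27941 libraries, with overlapping groups (log2 fold change 0.013, adjusted p = 0.745). Per kilobase of the longest transcript, LRRC75A-AS1 was at 630.1 CPM per kilobase in DMSO and 602 on ZW27941, far above TMPO-AS1 at 12.1 CPM per kilobase in DMSO and 14.8 on ZW27941 and UBAC2-AS1 at 1.82 CPM per kilobase in DMSO and 2.58 on ZW27941.

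Among LINC genes 14 rose and 10 fell, so 27.9% of 86 were called, against 30.1% of all genes tested and 42.2% of those at 2 CPM or more. Without ZW27941 replicate 2, 7 rose and 6 fell. Among antisense genes 39 rose and 33 fell, 36.4% of 198, and 25 rose without ZW27941 replicate 2. Whether the 2 kinds differ was not tested. Their median log2 fold changes were 0.028 and 0.0093. Of the -AS2 genes, 3 of 7 rose and 0 fell.

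Some of these symbols now stand for genes of small proteins. In GENCODE v29, which held 280 of the 284 symbols or their newer names, 9 were protein coding. LINC00094 is BRD3OS, LINC00116 is MTLN (mitoregulin, of the inner mitochondrial membrane), LINC00493 is SMIM26, LINC00998 is SMIM30 and LINC01420 is NBDY (of the mRNA decapping bodies). None of these 5 passed the test, with LINC00998 at 56.1 ± 1.11 CPM in DMSO and 57.5 ± 1.73 CPM on ZW27941 (SD, n = 3; log2 fold change 0.026, adjusted p = 0.565) and LINC01420 at 4.61 ± 0.261 CPM in DMSO and 5.09 ± 0.338 CPM on ZW27941 (log2 fold change 0.13, adjusted p = 0.179). LINC01125 (C2orf92), NCBP2-AS2 and TOPORS-AS1 (SMIM27) did not pass either. The exception, named after its values were seen, was MMP24-AS1 (MMP24OS), which was at 38.3, 37.9 and 38.7 CPM in the DMSO libraries and 42.9, 41.03 and 41.5 CPM in the ZW27941 libraries and rose (log2 fold change 0.12, adjusted p = 0.00317).

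Of 5 genes that hold a small nucleolar RNA within their bounds, 3 fell, 1 rose and 1 did not pass. Besides LRRC75A-AS1 these were picked after the values were known: EPB41L4A-AS1 was at 36.5, 38.03 and 37.3 CPM in the DMSO libraries and 29.7, 31.6 and 31.6 CPM in the ZW27941 libraries and fell (log2 fold change −0.28, adjusted p = 1.42e-06), and UBA6-AS1 was at 13.7, 14.5 and 13.5 CPM in the DMSO libraries and 11.6, 11.7 and 12.1 CPM in the ZW27941 libraries and fell (log2 fold change −0.24, adjusted p = 0.000156). TMEM161B-AS1 was at 34.7, 33.4 and 33.1 CPM in the DMSO libraries and 37.01, 36.2 and 35.4 CPM in the ZW27941 libraries and rose (log2 fold change 0.091, adjusted p = 0.0238), and LINC00888 was at 5.64, 5.29 and 5.49 CPM in the DMSO libraries and 5.44, 5.81 and 5.48 CPM in the ZW27941 libraries, with overlapping groups (log2 fold change 0.016, adjusted p = 0.875). Of 7 genes that hold a microRNA, LINC00599 rose, 0 fell and 6 did not pass. Among genes with at least 25% of their exonic bases under exons of the other strand, 11 of 48 rose and 6 fell (35.4% called). Of 96 genes that share no exonic base with any other gene, 15 rose and 14 fell (30.2% called). Both shares lie near the 33.8% of all 284 genes and between the 30.1% of all genes tested and the 42.2% of those at 2 CPM or more. The sets of 5 and 7 genes are too small to set beside them.

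Antisense and sense genes were then set side by side. The files hold a sense gene for all but 4 of the 198 antisense genes, 192 different ones. Of these, 187 were tested, 49 rose and 28 fell, so 41.2% were called, near the 42.2% of all genes at 2 CPM or more. Of the sense genes, 16 to 18 fell when DMSO replicate 2 or 3 or ZW27941 replicate 1 or 2 was left out. In 189 pairs both genes were tested. Both passed in 29 of them, in the same direction in 13 (10 up and 3 down) and in opposite directions in 16, 10 with the antisense gene lower and the sense gene higher and 6 the other way round. Only the antisense gene passed in 40 pairs, only the sense gene in 48 and neither in 72. The changes had the same sign in 96 of 189 pairs. Across pairs, which share the same 6 libraries and are not replicates, Pearson's r between the log2 fold changes was 0.021 and Spearman's rho 0.023, given as a description. Pairs in the same direction numbered 7 without DMSO replicate 2 or 3 and 8 without ZW27941 replicate 2, and pairs in opposite directions 10 without DMSO replicate 2 or ZW27941 replicate 2.

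**Figure D4:**
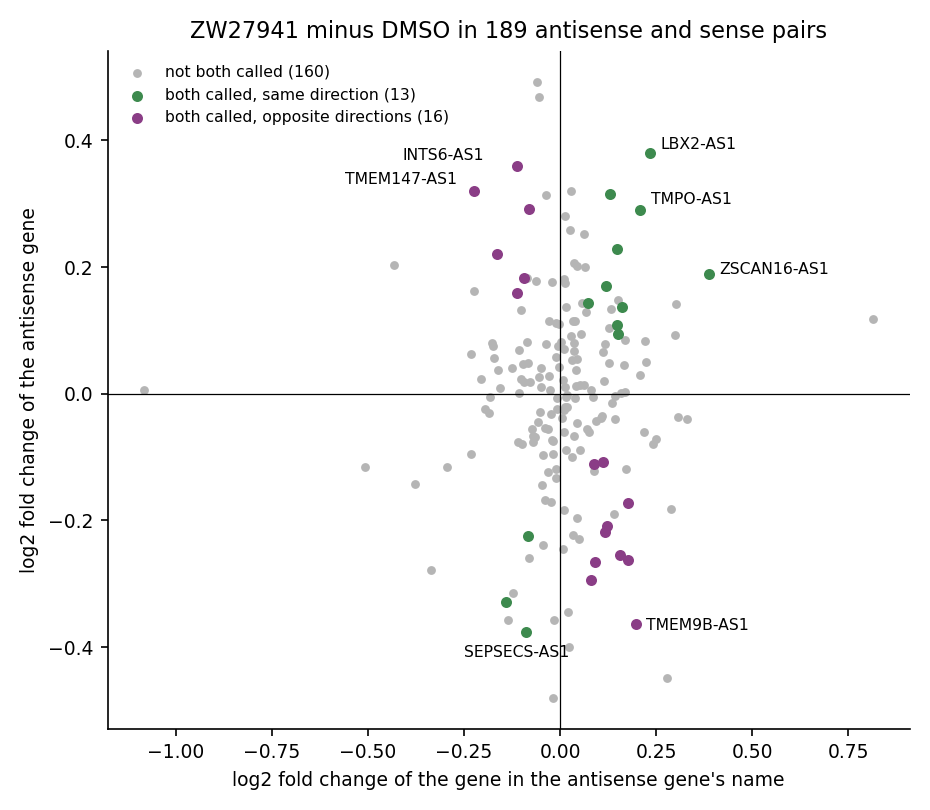
Each point is 1 of 189 pairs, with the log2 fold change of the gene in the antisense gene's name (horizontal) against that of the antisense gene (vertical), both ZW27941 minus DMSO. The 13 green pairs were called in the same direction and the 16 purple pairs in opposite directions, and the other pairs are gray and spread around 0 on both axes.

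For the pairs called in opposite directions with the largest change of their ratio, the log2 of the antisense CPM over the sense CPM, each plus 0.1, was taken in every library, so that library size drops out. TMEM9B-AS1 fell while TMEM9B, the gene of a lysosomal membrane protein, rose, with 18.7 ± 0.244 CPM in DMSO and 21.6 ± 0.243 CPM on ZW27941 (log2 fold change 0.20, adjusted p = 8.53e-05). Their log2 ratio was −2.49, −2.57 and −2.58 in DMSO and −3.06, −2.99 and −3.24 on ZW27941, a difference of −0.55. TMEM147-AS1 rose while TMEM147, the gene of an endoplasmic reticulum membrane protein, fell, with 34.2 ± 1.94 CPM in DMSO and 29.4 ± 0.677 CPM on ZW27941 (log2 fold change −0.22, adjusted p = 4.99e-05). Their log2 ratio was −0.60, −0.63 and −0.53 in DMSO and −0.091, −0.048 and 0.0079 on ZW27941, a difference of 0.54. INTS6-AS1 rose while INTS6 fell, with 95.97 ± 0.437 CPM in DMSO and 89.4 ± 1.99 CPM on ZW27941 (log2 fold change −0.11, adjusted p = 0.00144). Their log2 ratio was −3.25, −3.13 and −3.10 in DMSO and −2.71, −2.66 and −2.70 on ZW27941, a difference of 0.47.

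VPS9D1-AS1 was at 17.6, 16.98 and 15.4 CPM in the DMSO libraries and 14.1, 14.3 and 13.7 CPM in the ZW27941 libraries and fell (log2 fold change −0.26, adjusted p = 8.18e-05), and VPS9D1 rose, with 9.19 ± 0.175 CPM in DMSO and 10.5 ± 0.285 CPM on ZW27941 (log2 fold change 0.18, adjusted p = 0.00721). It was the only 1 of these 6 pairs with a log2 ratio above 0 in every library, which takes no account of transcript length: 0.93, 0.85 and 0.77 in DMSO and 0.40, 0.49 and 0.37 on ZW27941. NCK1-AS1 was at 6.197, 6.08 and 5.79 CPM in the DMSO libraries and 5.06, 5.13 and 5.06 CPM in the ZW27941 libraries and fell (log2 fold change −0.25, adjusted p = 0.00302), and NCK1, the gene of an SH2 and SH3 adaptor of receptor signaling, rose, with 23.03 ± 1.08 CPM in DMSO and 25.8 ± 0.309 CPM on ZW27941 (log2 fold change 0.15, adjusted p = 0.00176). Their log2 ratio was −1.89, −1.83 and −2.03 in DMSO and −2.34, −2.29 and −2.33 on ZW27941. C1RL-AS1 was at 22.2, 22.4 and 21.8 CPM in the DMSO libraries and 27.1, 26.9 and 23.9 CPM in the ZW27941 libraries and rose (log2 fold change 0.22, adjusted p = 0.000167), and C1RL, the gene of a protease related to complement C1r, fell, with 40.7 ± 0.427 CPM in DMSO and 36.6 ± 0.488 CPM on ZW27941 (log2 fold change −0.16, adjusted p = 0.000141). Their log2 ratio was −0.85, −0.87 and −0.90 in DMSO and −0.44, −0.42 and −0.63 on ZW27941.

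In all 6 of these pairs the ratios of the groups did not overlap. This follows in part from picking pairs called in opposite directions with the largest change of ratio. The exact permutation test over the 6 libraries (two-sided) gave p = 0.1 for each, the smallest that 3 against 3 allows. It supports nothing here. Over all 189 pairs, the ratio lay higher in every ZW27941 library in 42 and lower in 48. For single genes, such a lack of overlap was seen in 41.5% of all genes tested and in 52.8% of those at 2 CPM or more. Nothing is read from the counts of ratios about the pairs.

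**Figure D5:**
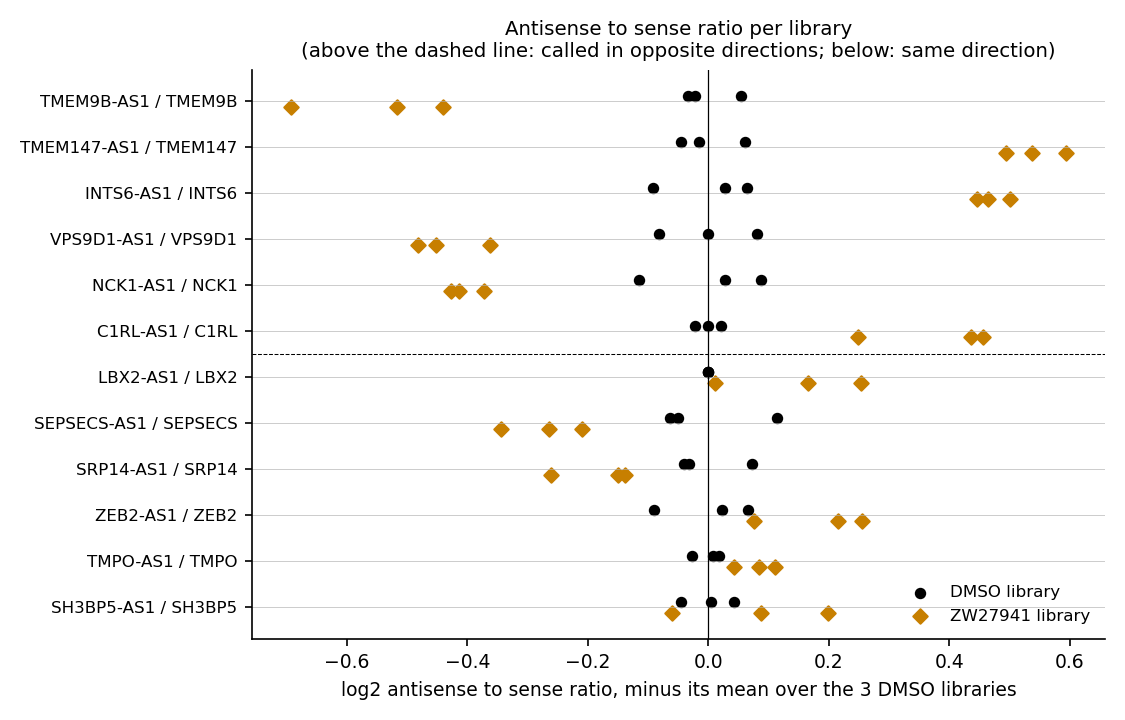
Each point is 1 library, as the log2 antisense to sense ratio minus its mean over the 3 DMSO libraries, for the 6 pairs called in opposite directions (above the dashed line) and 6 called in the same direction (below); circles are DMSO and diamonds ZW27941. In the upper 6 pairs the diamonds lie clear of the circles, with mean differences from −0.55 to 0.54, and in the lower 6 they lie nearer, from −0.27 to 0.18, with SH3BP5-AS1 overlapping.

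Pairs that moved together were led by LBX2-AS1, whose sense gene LBX2 rose, with 2.36 ± 0.113 CPM in DMSO and 2.79 ± 0.127 CPM on ZW27941 (log2 fold change 0.23, adjusted p = 0.0353). That call of LBX2 was lost under DESeq2 (adjusted p = 0.0611), with upper quartile normalization (adjusted p = 0.0571), with no filter (adjusted p = 0.0713), and without DMSO replicate 1 or 3 or ZW27941 replicate 1 or 2. SEPSECS-AS1 fell, and SEPSECS fell too, with 32.004 ± 0.667 CPM in DMSO and 30.3 ± 0.553 CPM on ZW27941 (log2 fold change −0.089, adjusted p = 0.0298), a call lost with library size only (adjusted p = 0.0591), with no filter (adjusted p = 0.109) and without DMSO replicate 2 or 3 or ZW27941 replicate 2 or 3 (adjusted p up to 0.147). SRP14-AS1 was at 6.79, 6.096 and 6.27 CPM in the DMSO libraries and 5.21, 5.201 and 4.93 CPM in the ZW27941 libraries and fell (log2 fold change −0.33, adjusted p = 0.000402). SRP14, the gene of a signal recognition particle subunit, fell as well, with 163 ± 2.33 CPM in DMSO and 149 ± 2.39 CPM on ZW27941 (log2 fold change −0.14, adjusted p = 0.000175).

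ZEB2-AS1 rose, and so did ZEB2, with 327 ± 5.35 CPM in DMSO and 360.3 ± 7.93 CPM on ZW27941 (log2 fold change 0.13, adjusted p = 0.000399). TMPO-AS1 was at 40.3, 39.9 and 41.2 CPM in the DMSO libraries and 51.7, 48.3 and 49.4 CPM in the ZW27941 libraries, with no overlap, and rose (log2 fold change 0.29, adjusted p = 2.40e-07). TMPO, which encodes lamina-associated polypeptides of the nuclear envelope, rose, with 340.2 ± 5.92 CPM in DMSO and 396 ± 5.69 CPM on ZW27941 (log2 fold change 0.21, adjusted p = 1.08e-06). SH3BP5-AS1 was at 7.096, 6.73 and 7.13 CPM in the DMSO libraries and 8.87, 8.38 and 7.47 CPM in the ZW27941 libraries and rose (log2 fold change 0.23, adjusted p = 0.00757), though not without ZW27941 replicate 1 (adjusted p = 0.0505). SH3BP5, the gene of a Rab11 activator, rose, with 51.5 ± 0.593 CPM in DMSO and 57.4 ± 0.599 CPM on ZW27941 (log2 fold change 0.15, adjusted p = 0.000201). These 6 pairs were picked for the size of the antisense change, so a larger change of the antisense gene than of its sense gene is favored by the choice. Of all 13 pairs called in the same direction, the antisense gene changed more in 9 and the sense gene in 4 (SVIL-AS1, THUMPD3-AS1, TRHDE-AS1 and ZSCAN16-AS1, named after their values were seen).

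Of the 16 antisense genes among the 20 largest changes, 10 had a sense gene that was tested and did not pass. UBAC2 was at 161 ± 0.613 CPM in DMSO and 155 ± 0.317 CPM on ZW27941 (log2 fold change −0.059, adjusted p = 0.0594), PDCD4 at 196 ± 3.64 CPM in DMSO and 190.3 ± 2.39 CPM on ZW27941 (log2 fold change −0.054, adjusted p = 0.0983) and SCAMP1 at 53.7 ± 1.26 CPM in DMSO and 52.7 ± 1.43 CPM on ZW27941 (log2 fold change −0.037, adjusted p = 0.366). NIFK was at 63.2 ± 0.953 CPM in DMSO and 62.8 ± 0.349 CPM on ZW27941 (log2 fold change −0.019, adjusted p = 0.631) and VLDLR at 98.6 ± 0.454 CPM in DMSO and 101 ± 1.79 CPM on ZW27941 (log2 fold change 0.024, adjusted p = 0.502). Per kilobase of the longest transcript, each of these 5 sense genes lay above its antisense gene in DMSO, by the least for SCAMP1 (11.9 against 3.91 CPM per kilobase) and by the most for UBAC2 (63.6 against 1.82). Of the sense genes not shown, MZF1, SNAI3 and ZMIZ1 also lay above. CPB2 (0.154 against 0.643) and RFX3 (0.921 against 2.73) lay below their antisense gene.

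Where pairs lie on the genome was taken from GENCODE v29, for 188 of the 189 pairs. In 41 pairs the starts were within 1000 bases and faced away from each other, as in the sequences above, and 5 of these antisense genes rose and 7 fell. In 41 the antisense gene started within 1000 bases inside its sense gene, as for TMEM147-AS1, TMPO-AS1 and TMEM9B-AS1, and 12 rose and 3 fell. In 104 pairs the genes overlapped with starts farther apart, and 20 rose and 21 fell. In the last 2 the starts were farther apart and the genes did not overlap. Both genes of a pair passed in 4 of the 41 pairs with starts facing away (2 in the same direction), in 9 of the 41 with the start just inside (4 in the same direction) and in 16 of the 104 (7 in the same direction). These groups of pairs were formed with the changes known, and no difference between them was tested. Of all 198 antisense genes 36.4% were called, beside 30.1% of all genes tested and 42.2% of those at 2 CPM or more.

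Antisense genes were mostly the lesser partner. Per kilobase of the longest transcript, the sense gene was above its antisense gene in 136 of 188 pairs, in 34 of 41 with starts facing away, in 36 of 41 with the start just inside and in 65 of 104 with starts farther apart. For GAS6 and PAXIP1, the sense genes shared by 2 antisense genes, 1 of these passed. For GAS6, the gene of a ligand of the TAM receptors, GAS6-AS1 was at 9.94 ± 0.225 CPM in DMSO and 9.82 ± 0.06699 CPM on ZW27941 (log2 fold change −0.026, adjusted p = 0.721) and GAS6-AS2 at 5.85 ± 0.215 CPM in DMSO and 6.68 ± 0.43 CPM on ZW27941, and GAS6-AS2 rose (log2 fold change 0.18, adjusted p = 0.0344). For PAXIP1, PAXIP1-AS1 was at 9.75 ± 0.319 CPM in DMSO and 11.1 ± 0.244 CPM on ZW27941 and rose (log2 fold change 0.18, adjusted p = 0.00658), while PAXIP1-AS2 was at 2.06 ± 0.109 CPM in DMSO and 1.96 ± 0.265 CPM on ZW27941 (log2 fold change −0.073, adjusted p = 0.628). Within neither pair was the difference tested.

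At the edge of the rule, the genes just inside were LINC00665 at 2.02, LINC00656 at 2.03 and PAXIP1-AS2 at 2.06 CPM in DMSO, and those just outside LINC00843 at 1.998, LPP-AS2 at 1.98 and TRIM52-AS1 at 1.97 CPM. On ZW27941 the former were at 2.29, 1.95 and 1.96 CPM and the latter at 2.37, 2.37 and 2.33 CPM. In all, 8 of the 284 genes had a mean below 2 CPM on ZW27941, among them LINC00565, CPB2-AS1, LINC01134 and SNAI3-AS1, and 5 genes below 2 CPM in DMSO reached it on ZW27941.

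The letters GGACT were counted in the longest GENCODE v29 transcript of each gene, on the transcribed strand, since METTL3 is known for this sequence; a match is not a methylated site. At least 1 match was found in 84.3% of 280 genes, 86.5% of those that rose, 88.4% of those that fell and 82.7% of those not called, and in 67.3% of the 1805 LINC and antisense genes below 2 CPM, whose transcripts were shorter (median 1077 against 2390 bases). Per kilobase the median count was 0.88 for genes that rose, 0.98 for those that fell, 0.98 for those not called and 0.85 for those below 2 CPM. The first match with 10 bases to either side, GGACT in capitals, is shown for 2 of the genes that rose most and 2 that fell most.
UBAC2-AS1, transcript bases 1223 to 1247: aatccacagcGGACTtccacagttc
LINC01569, transcript bases 125 to 149: acgggtgacaGGACTtttcgaacaa
LINC00565, transcript bases 1294 to 1318: gtggagcaagGGACTgggctgaccc
CPB2-AS1, transcript bases 22 to 46: gagtgcggcgGGACTtggaaatcga

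LINC01569 and LINC00565 have 3 matches each, CPB2-AS1 has 4 and UBAC2-AS1 has 1. PDCD4-AS1 and NIFK-AS1, among the largest rises and falls, have 0. Promoter letters were read from the 250 bases before to 50 after the start in RefSeq, which matched 223 of the 284 genes, on both strands. CCAAT was in 36.3% of them and in 35.7% of all 27305 promoters, GGGCGG in 61.0% against 44.6%, and CGGAAG in 31.4% against 19.9%. CACGTG was in 9.42% against 7.43% and TATAAA in 6.28% against 12%. Of 40 genes that rose and 33 that fell, CCAAT was in 30.0% and 48.5%, GGGCGG in 60.0% and 60.6% and CGGAAG in 30.0% and 30.3%. CACGTG was in 2.5% and 12.1% and TATAAA in 2.5% and 3.03%. Each motif was searched alone, so matches may overlap, and none of these shares was tested.

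Other long non-coding genes at 2 CPM or more, chosen by name, were counted as well. Of 16 small nucleolar RNA host genes named SNHG, 3 rose and 9 fell, with a median log2 fold change of −0.14, where 23.3% of all genes at this level rose and 18.9% fell. Of 11 microRNA host genes 1 rose and 5 fell (median −0.026), and of 4 intronic or overlapping transcripts (-IT1, -OT1) 0 rose and 3 fell (median −0.22). None was named with -DT in the counts. RefSeq, however, gives symbols ending in -DT to some of the antisense genes followed here, such as SRP14-AS1 (SRP14-DT) and NCK1-AS1 (NCK1-DT). For the machinery that trims and ends such transcripts, 4 of 25 genes of the nuclear RNA exosome and its adaptors rose and 6 fell (median −0.035). Of these, named after their values were seen, EXOSC3, a cap subunit of the exosome, rose, with 24.05 ± 0.773 CPM in DMSO and 28.5 ± 1.05 CPM on ZW27941 (log2 fold change 0.23, adjusted p = 2.56e-05) and EXOSC5, a ring subunit, fell, with 71.2 ± 2.301 CPM in DMSO and 60.3 ± 1.49 CPM on ZW27941 (log2 fold change −0.25, adjusted p = 1.61e-06). Of 14 Integrator genes 2 rose and 5 fell (median −0.031), among them INTS6. Each list is described by its counts alone.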

How the data were processed

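RNA of MOLM13 cells was sequenced in 6 libraries (3 DMSO, 3 ZW27941), grouped by the labels. For each library the authors deposited whole-number counts by gene symbol, without normalization or a filter on low counts. The submitters' processing notes name HISAT2, SAMtools 1.19.2 and HTSeq 2.0.3 and the build hg38; the annotation and the strand setting are not given in the sources used here. HTSeq's 5 tallies of reads not assigned to a gene, 37.4% to 39.8% of all reads, were left out. Ambiguous reads under more than 1 gene, 2.69% to 2.80% of all reads, are among them. Counts were tested in R 4.3.3 with edgeR 4.0.16 (TMM, filterByExpr, quasi-likelihood test) over 20399 genes. P-values were adjusted by Benjamini-Hochberg, with a threshold of 0.05. The biological coefficient of variation was 3.11%.

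The genes followed, the sense genes, the lists and the tests were chosen with earlier results of these data known. Genes named are the 10 largest rises and falls among those called, the 6 with the most counts, the 3 on either side of the 2 CPM limit, the 6 pairs with the largest ratio change among those called in opposite directions, the 6 with the largest antisense change among those called in the same direction, and LINC symbols now known as protein coding; others are named with a remark. CPM printed are not scaled by TMM factors, which ran from 0.994 to 1.009, while fold changes are.

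Positions and transcripts are from GENCODE v29 and promoters from RefSeq (GRCh38.p14), matched by symbol or older symbol. Alternatives were 3 other normalizations, DESeq2 1.42.0, 2 other filters, a block by replicate number, a threshold of 0.01, each library left out, other limits for choosing the genes and a pseudocount of 1 CPM in ratios. A self-test of this comparison (ZW27941, DMSO) used counts simulated for 20134 genes. Recovered were 101 of 107 genes changed by 0.25 on the log2 scale and 93 of 93 changed by 0.5, with 7 false calls. Changed genes were drawn from all genes at 2 CPM or more, whose median was 31.9 CPM in DMSO against 6.73 CPM for the 284. Every simulated gene had the same biological coefficient of variation, and no library stood apart. Recovery among the 284 genes was not tested. Supplementary tables of the study hold the authors' own comparisons, and none of their values were used. They name edgeR and no block, which entered the choice of the test.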

Additional observations from a re-analysis of the deposited data

How the results depend on the processing

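Depth limits the genes near 2 CPM, where the standard error of a log2 fold change was about 0.08. Of the genes at 2 to 5 CPM 22.4% passed, against 55.4% of those at 20 CPM or more. At an adjusted p under 0.01, 34 of the 284 genes rose and 28 fell, 24 antisense genes rose and 21 fell, 12 sense genes fell, and 5 pairs were called in the same direction and 8 in opposite directions. Scaling by the upper quartile moved the median log2 fold change of the 284 genes to −0.0074 and gave 38 rises and 51 falls, and scaling by library size only gave 57 rises and 38 falls. With a limit of 5 CPM (177 genes, and so fewer pairs), 32 sense genes rose.

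Leaving out 1 library at a time, rises ran from 32 to 47 and falls from 31 to 39, LINC rises from 7 to 14 and falls from 6 to 11, antisense rises from 25 to 33 and falls from 24 to 28, and sense gene rises from 40 to 48 and falls from 16 to 29. Pairs in the same direction ran from 7 to 12 and pairs in opposite directions from 10 to 15. The lowest counts of rises, 32 in all and 7 among LINC genes, came without ZW27941 replicate 2; without replicate 3, which stood apart, 47 rose and 39 fell. In all 6 such fits 56 of the 96 calls were kept (29 rises and 27 falls), and 0 of the 96 changed sign.

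Under DESeq2, 90 of the 284 genes were called, all of them among the 96, and with no filter 81. Changes of single named genes and pairs were recomputed 397 times, apart from the fits that leave out a library. Of these, 386 stayed the same, 9 lost their call, 2 gained one and 0 reversed. A gene stayed the same when it kept its side of the threshold, and a reversed sign was counted only where it was called in either fit. A ratio stayed the same when it moved by less than the larger group SD.

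Same-numbered libraries did not visibly deviate together: correlations of their deviations from the group means were −0.025, −0.040 and 0.080. Between libraries of unlike number the correlations ran from −0.13 to 0.15. Whether same-numbered libraries were prepared together cannot be told from these values, and the labels do not say. With the replicate number as a block, 53 genes rose and 43 fell, 95 of these 96 calls shared with the fit without it, 22 sense genes fell, and SEPSECS was lost (adjusted p = 0.0528).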
